A study of Mus musculus with 5 samples.

Results

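Yap1, Wwtr1, the 4 TEAD genes and the 2 vestigial-like genes Vgll3 and Vgll4 were followed through the mandibular tissue of mice at embryonic day 10.5. They were taken from the count table by gene symbol, 8 genes of 23441, and each of the 8 was found. Poly(A) RNA had been sequenced in 2 dCKO and 3 control libraries. The dCKO embryos carried Wnt1Cre with Yapf/f and Tazf/f on a background given as C57BL/6J x CBA/J; 129SvEv. The controls carried the same floxed alleles, with no Cre named, on 129SvEv. Genotype and strain background therefore cannot be told apart. Wnt1Cre is a Cre transgene driven by Wnt1 sequences and is active in premigratory neural crest, which gives rise to most of the arch mesenchyme. The epithelium, mesodermal core, endothelium and blood of the arch come from other lineages. The study's title asks about Yap and Taz in neural crest and smooth muscle.

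YAP, the product of Yap1, and TAZ, the product of Wwtr1, are paralogous transcriptional coactivators at the end of the Hippo kinase cascade. They have no DNA-binding domain of their own and reach their targets mainly through the TEAD factors, which bind the letters GGAATG or variants of them. When the LATS kinases phosphorylate YAP and TAZ, the coactivators are held in the cytoplasm by 14-3-3 proteins or degraded. VGLL proteins bind the same face of TEAD factors, and VGLL4 is known as a competitor of YAP there.

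RefSeq promoter windows (GRCm38.p6, 250 bases before to 50 after a transcript start, read 5′ to 3′ on the gene's strand) were listed for 6 of the 8 genes, Tead1 and Tead4 being the other two. The windows of the 3 genes whose RNA level passed the test below are shown, with GGAATG or its reverse complement CATTCC in capitals. Yap1 is at chr9:8004547-8004846 on the minus strand. Wwtr1 is at chr3:57575861-57576160 on the minus strand, its first listed start. Tead3 is at chr17:28350551-28350850 on the minus strand, the second of 3 listed starts, shown because it holds the most matches of the 3.
Yap1: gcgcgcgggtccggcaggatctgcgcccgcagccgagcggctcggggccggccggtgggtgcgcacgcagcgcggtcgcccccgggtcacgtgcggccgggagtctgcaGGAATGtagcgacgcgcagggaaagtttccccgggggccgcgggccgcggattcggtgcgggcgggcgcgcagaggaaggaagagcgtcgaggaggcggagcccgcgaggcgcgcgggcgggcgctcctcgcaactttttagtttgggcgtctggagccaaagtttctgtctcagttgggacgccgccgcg
Wwtr1: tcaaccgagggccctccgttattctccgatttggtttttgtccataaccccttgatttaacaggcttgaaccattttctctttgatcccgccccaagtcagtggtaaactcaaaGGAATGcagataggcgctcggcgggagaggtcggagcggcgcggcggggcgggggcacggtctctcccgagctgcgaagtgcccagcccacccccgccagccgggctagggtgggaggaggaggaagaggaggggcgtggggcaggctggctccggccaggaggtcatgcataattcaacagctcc
Tead3: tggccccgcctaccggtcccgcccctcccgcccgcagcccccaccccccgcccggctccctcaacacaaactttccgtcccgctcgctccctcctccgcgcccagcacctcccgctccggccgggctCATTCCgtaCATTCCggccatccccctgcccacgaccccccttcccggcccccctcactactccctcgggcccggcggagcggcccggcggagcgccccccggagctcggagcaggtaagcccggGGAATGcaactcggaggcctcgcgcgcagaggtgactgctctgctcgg

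The letters begin 141 bases before the start in Yap1 and 136 bases before it in Wwtr1. In Tead3 they occur 3 times in the window shown, 1 time in the window of the first listed start and 0 times in that of the third. Searched on both strands, with no overlap between matches, they were present in at least 1 window of 5 of the 6 genes (Yap1, Wwtr1, Tead3, Vgll3 and Vgll4). Among all 27025 genes in the same RefSeq set, 16.58% had a window with these letters. A match describes the sequence and is not evidence of binding, and the count data carry no measure of it.

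Library totals were 11346480 and 13298973 counts in the dCKO samples, against 6491137 to 7439419 in the controls. Of the defining markers of the labelled tissue, 15 of 15 for cranial neural crest mesenchyme were measured, with a summed level of 2266 and 2340 CPM (library-size-scaled counts, with TMM factors) in dCKO tissue and of 2445 to 2598 CPM in controls. All 9 measured red blood cell markers were called higher in dCKO tissue, with summed levels of 55619 and 79837 CPM against 3410 to 4421 CPM in controls, and so were 6 of 6 tested megakaryocyte and platelet genes. Sums for 9 epithelial markers, 3 of which were called higher, were 529 and 543 CPM in dCKO tissue and 348 to 448 CPM in controls. Endothelial markers summed to 284 and 337 CPM in dCKO tissue, against 265 to 290.0 CPM in controls (1 of 8 called higher). The sums for 8 genes of arch core mesoderm and muscle were 115 and 134 CPM in dCKO tissue and 88.7 to 102 CPM in controls (0 of 8 called by edgeR and by DESeq2 and 1 by limma-voom, with 3 at an unadjusted p below 0.05 by edgeR). Myeloid markers summed to 22.6 and 34.5 CPM in dCKO tissue and 11.8 to 14.5 CPM in controls (1 of 5 tested called higher), and neural and glial markers to 25.0 and 30.0 CPM in dCKO tissue and 13.4 to 24.4 CPM in controls (1 of 4 tested called higher). In bulk tissue such as this, fewer cells of a type and less RNA per cell cannot be told apart.

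Both targeted genes fell in dCKO tissue, to a similar share of the control level. Yap1 measured 175 and 169.9 CPM in the 2 dCKO libraries, against 312, 475 and 512 CPM in control replicates 1, 2 and 3. Both dCKO libraries lay below every control, and close to each other. Wwtr1 had fewer counts, at 22.7 and 22.8 CPM in dCKO tissue, against 38.4, 65.1 and 66.15 CPM in the controls. Again the groups did not overlap. The log2 fold change was -1.33 for Yap1 (SE 0.16, 95% interval -1.67 to -0.99) and -1.31 for Wwtr1 (SE 0.20, 95% interval -1.72 to -0.90), with edgeR adjusted p values of 1.31e-05 and 1.56e-04 over 12710 genes tested. At that threshold, adjusted p below 0.05, 1.42% of all tested genes were called lower and 5.0% higher. In the authors' deposited table the log2 fold changes are -1.30 for Yap1 and -1.28 for Wwtr1, with adjusted p values of 0.0199 and 0.0746, so that Wwtr1 does not pass 0.05 there.

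Transcripts of both genes remained in dCKO tissue at 39.8% of the control mean for Yap1 and 40.3% for Wwtr1. Counts are for whole genes and the sources used here do not name the floxed exons, so RNA of a recombined allele that keeps its other exons is counted too. RNA from arch cells of the other lineages named above is also counted. How much of the remaining RNA came from either source was not tested. The sum of the 15 crest mesenchyme markers was lower in dCKO tissue by far less than either gene, with a median log2 fold change of -0.03 over those markers. Among the markers, Prrx1 and Dlx5 were called lower by edgeR, and DESeq2 called Pdgfra as well (edgeR log2 fold change -0.35, edgeR adjusted p = 0.0882). None of the 15 was called higher. Among the others, the groups did not overlap in Msx2 (lower, log2 fold change -0.19) or in Tfap2b, Tfap2a and Msx1 (higher, 0.49, 0.28 and 0.17). The part of tissue makeup in the fall of Yap1 and Wwtr1 was not tested beyond these values.

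**Figure D1:**
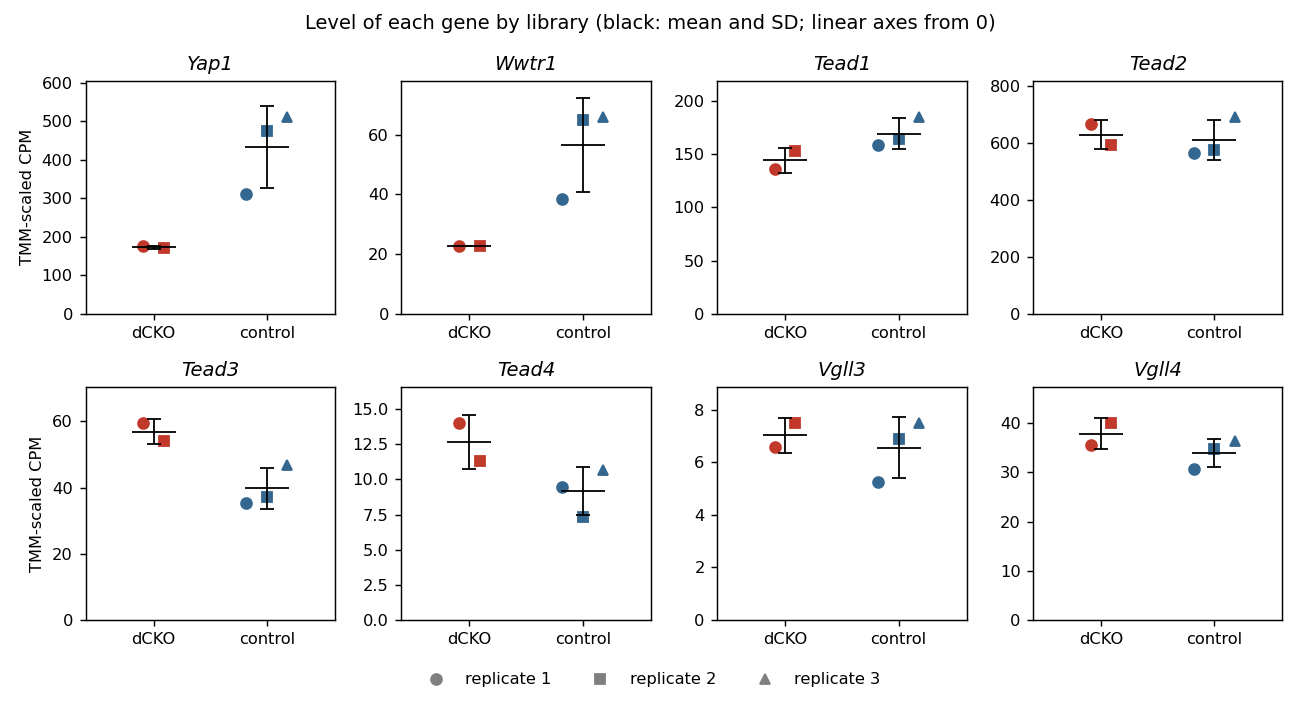
TMM-scaled CPM of each of the 8 genes (linear axes from 0), with 1 point per library, dCKO left of control, marker shape giving the replicate number, and black bars giving the mean and SD of 2 dCKO or 3 control libraries. Yap1 and Wwtr1 are lower in both dCKO libraries, with control replicate 1 between the dCKO and the other control libraries, and Tead3 is higher in both dCKO libraries (54.2 and 59.6 CPM, against at most 46.9 CPM in a control).

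Among the controls, Yap1 and Wwtr1 were both lowest in control replicate 1. Control replicate 1 held 63.2% of the mean of control replicates 2 and 3 for Yap1 and 58.5% for Wwtr1. Among the 9553 tested genes averaging at least 10 CPM, 124 (1.30%) were as low as 2/3 of that mean in control replicate 1. The other 6 genes stood between 73.1% (Vgll3) and 105% (Tead4) there. The limit of 2/3 was not set in advance and lies just above the values of Yap1 and Wwtr1. With control replicate 1 left out, the log2 fold changes were -1.51 for Yap1 and -1.52 for Wwtr1, and they ranged from -1.34 to -1.20 and from -1.31 to -1.19 when any other single library was left out. Every one of these fits called both genes. The number of Yap1 counts per Wwtr1 count was 7.68 and 7.45 in dCKO tissue and 8.13, 7.30 and 7.74 in controls, so the ratio of these genes overlapped between groups while the levels did not.

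Of all profiles compared, that of Wwtr1 was the nearest to that of Yap1. Likeness was measured as the root-mean-square difference over the 5 libraries between log2 CPM values centred on each gene's control mean, a description to which the genotype contributes. Wwtr1 was at 0.055 from Yap1 and ranked 1 among 9552 other genes, and Yap1 ranked 1 for Wwtr1. The median gene stood at 0.849 from Yap1. Next after Wwtr1 came Scarf2, a scavenger receptor family member (0.212), the forkhead factor gene Foxc1 (0.222), the transcriptional coregulator gene Cited1 (0.236) and Pkdcc, which encodes a secreted protein kinase (0.266). For Wwtr1 the next genes were the homeobox gene Gsc (0.240), Foxc1 (0.241), Cited1 (0.243) and Pkdcc (0.253). The rank of 1 held in each of 5 comparisons that left out 1 library. Over the 3 controls alone, where the genotype has no part, Wwtr1 was at 0.062 from Yap1 and ranked 33. Yap1 ranked 13 for Wwtr1 there, and the median gene stood at 0.330 from Yap1.

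**Figure D2:**
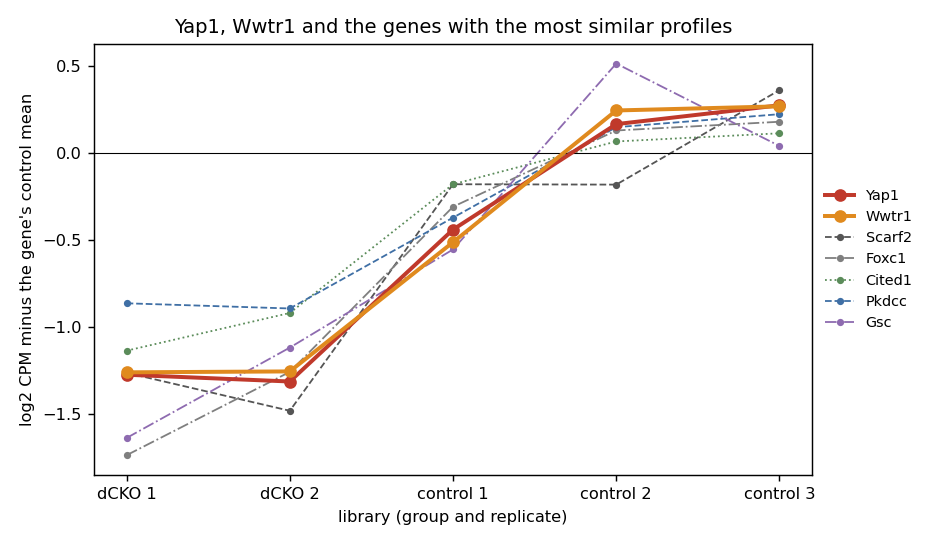
Log2 CPM of Yap1, Wwtr1 and the genes with the most similar profiles in each library, minus the mean of that gene over the 3 controls. Yap1 and Wwtr1 stay within a root-mean-square difference of 0.055 of each other, and both are low in control replicate 1 relative to control replicates 2 and 3.

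Among the TEAD genes, Tead3 rose while Tead1, Tead2 and Tead4 did not pass the test. Tead3 measured 59.6 and 54.2 CPM in dCKO tissue, against 35.3, 37.2 and 46.9 CPM in control replicates 1, 2 and 3. Both dCKO libraries exceeded every control. The log2 fold change was 0.52 (SE 0.15, 95% interval 0.21 to 0.82, edgeR adjusted p = 0.0408). In the authors' deposited table it is 0.54, with an adjusted p of 0.0470. The call was lost without control replicate 1, control replicate 2, dCKO replicate 1 or dCKO replicate 2 (adjusted p of 0.191, 0.133, 0.298 and 0.101), and also after the dependence of expression on GC content was taken out of each library (log2 fold change 0.31, adjusted p = 0.162). Epithelial and blood cell markers were higher in the same dCKO libraries, as given above, and their part in the Tead3 difference was not tested.

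Tead1, a family member well known from heart and skeletal muscle, measured 136 and 153 CPM in dCKO tissue, against 159, 165 and 186 CPM in controls. The groups did not overlap, but the log2 fold change of -0.23 (SE 0.12, 95% interval -0.49 to 0.03) did not pass (edgeR adjusted p = 0.291). Tead2, known for its expression in early embryos, was at 665 and 593 CPM in dCKO tissue and 566, 576 and 692 CPM in controls. These ranges overlapped (log2 fold change 0.04, 95% interval -0.20 to 0.28, edgeR adjusted p = 0.879). Tead4, which acts in the trophectoderm of the early mouse embryo, was the least abundant TEAD gene, with 14.0 and 11.3 CPM in dCKO tissue and 9.46, 7.30 and 10.7 CPM in controls. Its dCKO libraries stood above its controls, with a log2 fold change close to that of Tead3 but a wider interval (0.47, -0.02 to 0.97, edgeR adjusted p = 0.259). From 54 to 152 counts per library lie behind the Tead4 values, against 269 to 708 for Tead3.

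Neither vestigial-like gene passed the test. Vgll4 measured 35.7 and 40.1 CPM in dCKO tissue, against 30.7, 34.8 and 36.4 CPM in controls, a log2 fold change of 0.16 (95% interval -0.15 to 0.47, edgeR adjusted p = 0.569). Vgll3, which encodes a TEAD-binding cofactor, was at 6.56 and 7.504 CPM in dCKO tissue and 5.26, 6.90 and 7.49 CPM in controls. For Vgll3 the libraries held 40 to 98 counts and the interval was wide (log2 fold change 0.11, -0.47 to 0.69, edgeR adjusted p = 0.863). For both genes the groups overlapped. Over the 8 genes, the groups did not overlap in 5. In dCKO tissue 3 were lower (the targeted Yap1 and Wwtr1, and Tead1) and 2 higher (Tead3 and Tead4). Among all tested genes, 37.6% showed no overlap (18.6% lower and 19.0% higher).

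**Figure D3:**
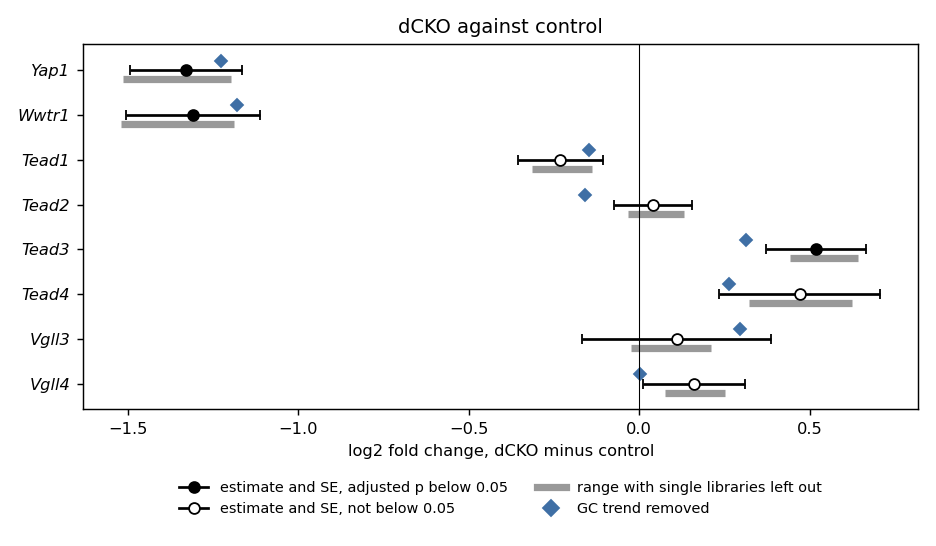
Log2 fold change (dCKO minus control) of the 8 genes: points with bars give the edgeR estimate and its SE, filled where the adjusted p is below 0.05; grey bars give the range with single libraries left out; diamonds give the value after removal of the GC trend. The estimates for Yap1 and Wwtr1, leaving aside their SE bars, lie between -1.52 and -1.18 in all of these. The estimate for Tead3 is 0.52 and moves to 0.31 without the GC trend.

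Levels of different genes were compared per kilobase of the longest annotated transcript (GENCODE M21, used for lengths only). In the controls Tead2 was highest at 180.0 ± 20.7 CPM per kb and Yap1 next at 82.0 ± 20.2 (SD, n = 3). A middle group followed, with Tead1 at 17.02 ± 1.42, Vgll4 at 15.4 ± 1.32, Wwtr1 at 12.03 ± 3.35 and Tead3 at 11.6 ± 1.80 CPM per kb (SD, n = 3), whose neighbouring ranges overlapped. Tead4 and Vgll3 were lowest, at 2.98 ± 0.56 and 0.934 ± 0.165 CPM per kb. In dCKO tissue Tead2 was again highest at 185 ± 14.9 CPM per kb and Yap1 second at 32.6 ± 0.62, while Wwtr1 at 4.85 ± 0.01 was sixth, below Vgll4, Tead3 and Tead1 (SD, n = 2). There the ranges of Vgll4 and Tead3 overlapped, and those of Tead3 and Tead1, of Tead1 and Wwtr1 and of Wwtr1 and Tead4 did not. With coding length in place of transcript length, Tead1 stood directly below Yap1 in both groups and the order of the middle genes changed. By group mean, Tead2, Yap1, Tead4 and Vgll3 kept their places. In dCKO tissue the coding-length ranges of Yap1 (116.06 to 119.25 CPM per kb) and Tead1 (103.87 to 116.79) overlapped.

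**Figure D4:**
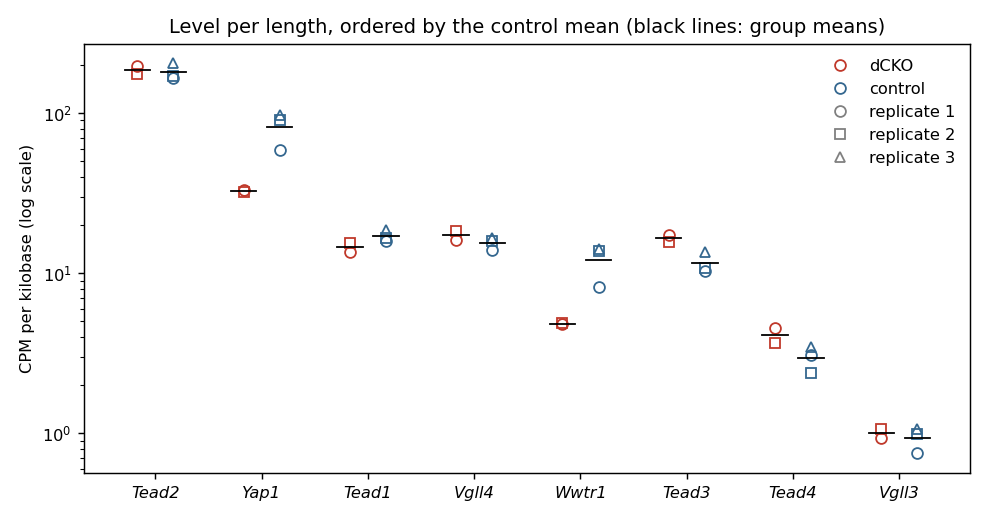
CPM per kilobase of the longest transcript (log axis) for each library, with dCKO left of control for each gene, black lines at group means, and genes ordered by the control mean. Tead2 lies highest in both groups, and Yap1 (32.6 CPM per kb in dCKO and 82.0 in control) and Wwtr1 (4.85 and 12.03) are the genes whose groups stand farthest apart.

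On this per-kilobase scale, Yap1 and Wwtr1 together came to 37.9 and 37.0 CPM per kb in dCKO tissue, against 67.2, 104 and 111 in controls. Summed TEAD levels overlapped, at 231 and 209 CPM per kb in dCKO tissue and 196, 199 and 239.6 in controls. Coactivator RNA per TEAD RNA was thus 0.164 and 0.177 in dCKO libraries, against 0.343, 0.521 and 0.463 in control libraries, and did not overlap with either alternative length. Tead2 made up 84.6% and 83.4% of the TEAD sum in dCKO tissue and 85.1% in each control. With coding length its group means were 74.5% in dCKO tissue and 73.4% in controls. Tead3 made up 7.49% and 7.52% of the TEAD sum in dCKO tissue, against 5.24%, 5.42% and 5.69% in controls. Relative to Vgll3 and Vgll4 together, coactivator RNA was 2.21 and 1.92 in dCKO tissue, against 4.56, 6.18 and 6.31 in controls. RNA levels say nothing of the amounts of protein or of their place in the cell.

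The wider pathway was read from 4 lists with 75 different genes, of which 69 were measured. Of these, 5 were called lower and 3 higher, against 6.42% of all tested genes called in either direction, and their median log2 fold change was -0.07 (all genes, -0.00062). With total-count scaling the split was 7 lower and 1 higher, and Crim1 and Taok3 lost their calls (edgeR adjusted p of 0.0562 and 0.0690). Among 21 measured targets of YAP and TAZ, 3 fell and 1 rose, and the median was -0.02. Ctgf, a matricellular growth factor gene and a direct TEAD target, measured 17.7 and 20.8 CPM in dCKO libraries, against 42.7, 32.9 and 52.2 CPM in control replicates 1, 2 and 3 (log2 fold change -1.14, edgeR adjusted p = 4.42e-04). In Ctgf, control replicate 1 lay between the other controls, unlike in Yap1 and Wwtr1. Lats2, a kinase gene and feedback target, was at 24.7 and 30.6 CPM in dCKO tissue and 45.2, 46.4 and 57.7 CPM in controls, and Amotl2, which encodes a motin that binds YAP, at 82.9 and 96.6 CPM in dCKO tissue and 109.6, 126 and 174 CPM in controls. In these genes too the groups did not overlap. Crim1, which encodes a transmembrane protein that binds BMPs, was higher, at 37.0 and 38.7 CPM in dCKO tissue and 27.5, 23.9 and 25.4 CPM in controls. The most abundant targets that did not pass were Arhgef17, Ajuba and Asap1, with log2 fold changes of 0.07, -0.29 and -0.10. Of these, Ajuba, which encodes a LIM protein that binds LATS kinases, was called lower after removal of the GC trend, at -0.49 (edgeR adjusted p = 0.0170).

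Among 26 measured Hippo kinases and upstream regulators, 4 fell and 1 rose, the median being -0.10 on the log2 scale. Sav1, the scaffold of the MST kinases, measured 64.0 and 70.1 CPM in dCKO tissue, against 102, 100.4 and 81.1 CPM in controls. Wwc2, of the KIBRA family, was at 62.8 and 57.6 CPM in dCKO tissue and 77.6, 91.0 and 93.5 CPM in controls, and Lats2 and Amotl2 belong to this list as well. Taok3, a kinase gene, was higher at 11.6 and 16.5 CPM in dCKO tissue, against 7.88, 9.47 and 6.26 CPM in controls, with an adjusted p of 0.0486 by edgeR and 0.0683 by DESeq2. Map4k4, Amotl1 and Amot, the most abundant others, stood at log2 fold changes of -0.21, -0.01 and -0.31 and did not pass. The Amot value depended on the dCKO libraries, at -0.60 and called without dCKO replicate 2 (edgeR adjusted p = 0.0313), and at -0.05 and not called without dCKO replicate 1 (0.936). Several of these calls depended on single libraries, and between 1 and 10 of the 69 genes were called when 1 library was left out. Ctgf was called in all 5 such fits and was the only pathway gene called without dCKO replicate 1. Without that library Lats2 had an edgeR adjusted p of 0.0772. Amotl2 did not pass without dCKO replicate 1, dCKO replicate 2 or control replicate 3 (0.312, 0.0637 and 0.0507), nor did Wwc2 without dCKO replicate 1, dCKO replicate 2 or control replicate 2 (0.0722, 0.179 and 0.0602). Crim1 and Sav1 passed without control replicate 3 but in none of the other 4 fits (adjusted p up to 0.171 and 0.280). Taok3 passed without control replicate 2 but in none of the others (up to 0.3996). With the GC trend removed, Sav1 and Taok3 did not pass (0.121 and 0.0671), while Ajuba did, and 9 pathway genes were called, 6 lower and 3 higher.

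None of 11 measured genes for the retention and turnover of YAP and TAZ was called by edgeR, with 5 at an unadjusted p below 0.05, and 1 was called by DESeq2 and by limma-voom. That gene was Ywhab, which encodes a 14-3-3 protein, at 474.5 and 459 CPM in dCKO tissue and 658, 649 and 519.6 CPM in controls (log2 fold change -0.38, edgeR adjusted p = 0.0598, DESeq2 0.0365 and limma-voom 0.0499). It also passed by edgeR without control replicate 3 (0.00517). Ywhae and Ywhag stood at -0.18 and 0.05. Of 15 measured partner factors and other TEAD cofactors, Runx1 alone was called. Runx1, a transcription factor gene of blood formation, measured 7.02 and 7.35 CPM in dCKO libraries, against 2.23, 2.98 and 1.83 CPM in controls (log2 fold change 1.603, edgeR adjusted p = 0.00462), in the libraries where blood cell markers were also higher, whose part was not tested. It did not pass without dCKO replicate 1 or 2 (adjusted p of 0.0529 and 0.0722). The abundant partners Ctnnb1, Ctbp1 and Ctbp2 stood at -0.07, 0.27 and -0.16 and did not pass, although Ctbp1 was called higher without control replicate 3 (0.36, edgeR adjusted p = 0.0469). Vgll2, a vestigial-like gene named after its values were seen, was at 41.9 and 53.8 CPM in dCKO tissue and 30.2, 36.8 and 35.7 CPM in controls, and also did not pass (log2 fold change 0.48, edgeR adjusted p = 0.0701).

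**Figure D5:**
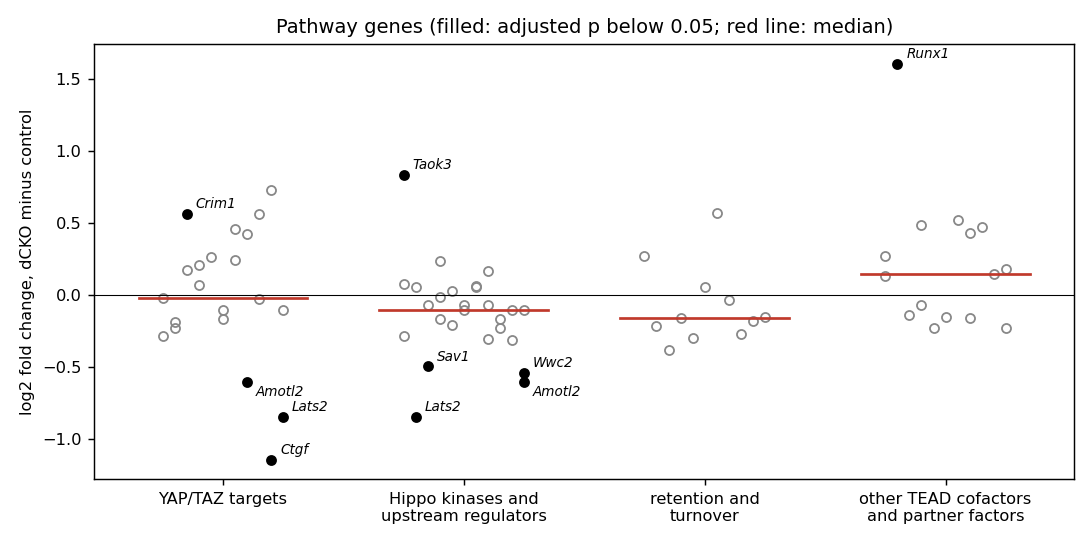
Log2 fold change (dCKO minus control) of each measured gene in the 4 pathway lists, filled and named where the edgeR adjusted p is below 0.05, with red lines at the medians. Most genes lie near 0, with Ctgf lowest at -1.14 and Runx1 highest at 1.603; Lats2 and Amotl2 appear in the first and second lists.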

How the data were processed

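Poly(A) RNA was sequenced from 2 dCKO and 3 control samples of mandibular tissue, grouped by their titles. The authors deposited raw read counts per gene symbol, with a signal table of their own comparison that per the file headers holds mean normalized counts, the fold change as a ratio, its log2 value, and a p-value with its adjusted p-value. The submitters' processing notes name HTSeq 0.5.4p3, DESeq 1.16.0 and mm9. The aligner, annotation, counting mode and strand setting were not given in the sources used here. Overlapping and antisense genes could therefore share reads. The count columns headed WT were matched to the controls by replicate number. Of 23441 rows, 27 carry date-like symbols. Reads in no gene take 41.9% of the authors' mean normalized counts and are not in the count table. Nothing in the labels says that samples came from separate embryos, and the p-values then measure only the spread between these samples, which may be technical. Chi-square per gene between libraries of 1 group was 4.28 to 13.4, above sampling noise, and each was kept as its own sample.

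Counts were analysed in R 4.3.3 with edgeR 4.0.16: filterByExpr (minimum count 10, minimum total 15) left 12710 genes, TMM factors scaled the libraries, and the quasi-likelihood F test (two-sided) compared dCKO with control, with p adjusted over all genes by Benjamini-Hochberg and called below 0.05. The SE is the size of the log2 fold change divided by the root of F. The fit was checked on simulated counts. CPM values are TMM-scaled. Alternatives were RLE and total-count scaling, TMM without red blood cell genes, DESeq2 1.42.0, limma-voom (limma 3.58.1), no filter (1 count in all) and a stricter filter (1 CPM in 2 libraries, mean of 5 CPM), each library left out, the replicate number as a block, and removal of each library's trend with GC content (loess, span 0.5, GC found for 99.3% of tested genes). Fits with a single dCKO library assumed it to vary like the controls.

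The 8 genes, the pathway lists and the marker lists were chosen with earlier results of these data known. Named in the text were the 8 genes, the called members of each pathway list with up to 3 abundant uncalled ones, and the 5 genes nearest to Yap1 and to Wwtr1 in profile (log2 CPM with prior count 2, mean of at least 10 CPM). Prrx1, Dlx5, Pdgfra, Msx2, Tfap2b, Tfap2a, Msx1, Vgll2 and the genes of few counts were named after their values were seen. Gene lengths, promoter windows and coordinates come from GRCm38 and were not mixed with mm9, since the count table holds no coordinates.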

Additional observations from a re-analysis of the deposited data

How the results depend on the processing

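Yap1 and Wwtr1 were called lower in the main comparison and in all 15 alternatives, with log2 fold changes of -1.51 to -1.015 and of -1.52 to -0.97. Tead3 was called in 8 of 15 alternatives and kept its sign in all of them (0.31 to 0.65). The count of genes called higher among the 8, which was 1 (Tead3), was 0 with total-count scaling (adjusted p = 0.0682), with the GC trend removed (0.162), and with the GC trend removed and the replicate block (0.0884), and 0 to 1 with single libraries left out. The other 5 of the 8 genes were called in none of the 15 alternatives. Total-count scaling shifted the median gene by -0.08 and split the calls into 531 higher and 469 lower, against 636 and 180 with TMM. The globin genes Hba-x, Hbb-y and Hbb-bh1 together held 7.43% and 5.30% of counts in the dCKO libraries, against 0.33% to 0.44% in controls. Their part in this shift was not tested. Genes called over the whole table numbered 816 in the main comparison and 442 to 1637 with single libraries left out (442 and 483 without dCKO replicate 1 or 2, and 485, 634 and 1637 without control replicate 1, 2 or 3). Pathway genes called numbered 8, and 1 to 10 in the same fits. With the replicate number as a block, 2121 genes, 2 lower and 1 higher of the 8, and 14 pathway genes were called, and 13 pathway genes and 1132 genes in all with the GC trend removed as well. Ajuba, Map4k4 and Ctbp2 gained calls in that last fit (edgeR adjusted p of 0.0122, 0.0472 and 0.0186), and Amot, Ctbp1 and Vgll2 with the block alone (0.0429, 0.0345 and 0.0211). Ywhab was called in both, and Taok3 in neither (0.0544 with the block alone). Control replicate 3 has no dCKO library of its number, so in fits with the block it does not enter the estimated difference. With the block alone the log2 fold change of Tead3 was 0.65, against 0.64 in the fit without control replicate 3. Deviations of same-numbered libraries from their group means correlated at 0.08 and -0.0042, and only 2 pairs exist. The deviations of 2 dCKO libraries mirror each other, so these correlations cannot decide whether replicate numbers pair the samples. Likeness of Wwtr1 to Yap1, an alternative chosen after seeing the data, ranked 1 without any single library and 33 over the controls alone. Per-kilobase shares depend on the length used: Tead1 made up 6.61% of the TEAD sum in dCKO tissue and 8.06% in controls with transcript length, and 17.5% and 20.8% with coding length. For Vgll3, with 40 to 98 counts per library, the 95% interval of -0.47 to 0.69 held 0 and differences of either sign. The smallest difference that could have been detected was not calculated.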

Other observations

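Several genes whose products are known to bind YAP, TAZ or TEAD factors had too few counts to pass the filter of the main comparison. With no filter on low counts, 11 pathway genes were called, 6 lower and 5 higher. Pax3, a paired-box gene of the neural crest and muscle precursors, had 15 and 13 counts in the dCKO libraries, against 4, 1 and 0 in control replicates 1, 2 and 3. Scaled for library size these are 1.39 and 0.995 CPM in dCKO tissue, against 0.526, 0.135 and 0 CPM in controls, and the groups did not overlap. Tbx5, a T-box gene of heart and forelimb, had 2 and 1 counts in dCKO tissue and 12, 0 and 0 in the controls, so nearly all of its counts came from control replicate 1. Runx3 had 2 and 3 counts in dCKO tissue and 4, 1 and 0 in controls, Pax8 had 2 and 2 against 0, 0 and 1, and Vgll1 had 1 count in all 5 libraries together. Ankrd1, a YAP target gene of muscle, had 0 and 6 counts in dCKO tissue, against 5, 2 and 1 in controls. Runx2, a factor of bone formation, was tested at 19 and 33 counts in dCKO tissue and 11, 5 and 17 counts in controls, with a log2 fold change of 0.47 (edgeR adjusted p = 0.648).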
